A study of Caenorhabditis elegans with 4 samples.

Results

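P granules are RNA and protein condensates that mark the germ cells of the nematode Caenorhabditis elegans. In the adult germline they sit on the outer face of nuclear pores, where newly exported mRNA and small RNA pathways meet. The genes described here encode constitutive P granule proteins and were taken by symbol: pgl-1, pgl-3, glh-1, glh-2, glh-3, glh-4 and deps-1. They make up 7 of the 20182 genes counted, and all 7 had enough counts to be tested. PGL-1 and PGL-3 are self-associating scaffold proteins with an RNA-binding RGG box. GLH-1 to GLH-4 are germline DEAD-box RNA helicases related to Vasa, of which GLH-1, GLH-2 and GLH-4 carry phenylalanine-glycine repeats of the kind found in nuclear pores. DEPS-1 is a serine-rich protein needed for normal P granule assembly and for RNA interference.

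The data are total RNA from whole young adults grown from hatched larvae, in 4 libraries. The mutant group holds 2 libraries of a strain mutated in both cey-1 (allele rrr12) and cey-4 (allele ok858), and the control group holds 2 libraries of N2, the standard wild-type strain. The mutated genes encode Y-box proteins, cold shock domain proteins that coat mRNA. Whether replicate libraries stem from separate cultures is not stated in the labels, and a p-value here covers the spread among these 4 samples only, which may be technical. Library totals were 33009708 and 24717311 counts in the mutant and 29773406 and 31311497 in N2. Levels below are CPM, counts relative to the library total after trimmed-mean (TMM) scaling, and where genes are compared with each other the level is CPM per kilobase of merged exon.

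The strain labels were checked on the mutated genes. cey-4 had 10.1 and 11.3 CPM in the mutant libraries, against 787 and 762 CPM in N2. cey-1 had 21.6 and 24.5 CPM in the mutant and 144 and 130 CPM in N2. On the log2 scale, mutant over N2 with its standard error, cey-4 stood at -6.18 ± 0.12 and cey-1 at -2.57 ± 0.11 (edgeR quasi-likelihood test, adjusted p = 5.494e-10 and 1.326e-06). Markers of oocytes, sperm, body wall muscle, intestine, hypodermis and neurons were all counted, and none of them was at 0. Of the muscle markers 5 of 7 were higher and 0 lower, with summed levels of 14719 and 15501 CPM in the mutant and 9739 and 9940 CPM in N2. The intestine list had 3 of 9 higher and 1 lower, and the hypodermis and neuron lists 2 of 7 higher and 1 lower each. Summed levels of the intestine list were 3247 and 3691 CPM in the mutant and 2858 and 2769 CPM in N2. Those of the hypodermis list were 2154 and 1956 CPM in the mutant and 2368 and 2846 CPM in N2, most of it from col-19, the lower gene. Those of the neuron list were 202 and 223 CPM in the mutant and 187 and 205 CPM in N2. Oocyte markers had 0 of 11 higher and 3 lower, with a median log2 fold change of -0.23. Their summed levels were 7126 and 7481 CPM in the mutant and 8973 and 8204 CPM in N2. Over all genes tested, 13.1% were higher and 13.3% lower (edgeR adjusted p below 0.05). With each library's trend on exon length removed (described further on), higher and lower genes numbered 4 and 0 for muscle and 4 and 0 for intestine. They numbered 2 and 0 for hypodermis, 0 and 1 for neurons and 1 and 6 for oocytes. Of 11 sperm markers 9 were higher and 0 lower, both as counted and with the length trend removed. Over all genes tested 23.6% then passed, 10.3% as lower. The part of these markers in the values below was not tested. In RNA from whole worms, fewer cells of a type and less RNA per cell cannot be told apart.

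None of the 7 P granule genes passed an adjusted p below 0.05, with 0 called in either direction between the mutant and N2 (edgeR quasi-likelihood test, Benjamini-Hochberg adjustment over all 13944 genes tested). Over all genes tested, 26.4% were called, 13.1% as higher and 13.3% as lower. DESeq2 and limma, which called 20.8% and 25.1% of the genes they gave an adjusted p, also called 0 of the 7. At an unadjusted p below 0.05 the number was 2, pgl-1 and pgl-3, where 37.9% of all genes lay below that value. Log2 fold changes of the 7 ran between -0.28 and 0.04, with 5 of 7 negative and a median of -0.15, beside a median of -0.012 over all genes tested. The plot of levels by library shows the small distance between strains against the distance between genes.

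**Figure D1:**
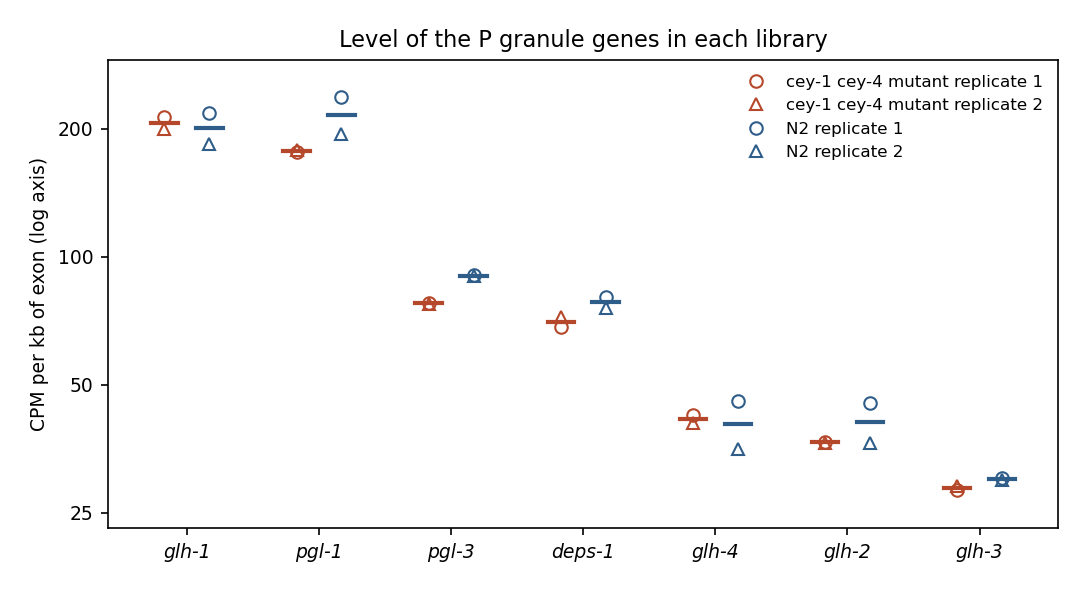
Level of each P granule gene in CPM per kilobase of merged exon (log axis), with 1 point per library and a horizontal line at the mean of each group, the cey-1 cey-4 mutant left of N2. The genes spread from about 28.5 for glh-3 to 207 for glh-1 in the mutant, while the groups of any gene lie close together.

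The scaffold genes had the lowest fold changes of the 7. pgl-1 (WBGene00003992; chromosome IV, 6974441 to 6977318, minus strand, Ensembl annotation of WBcel235) had 438 and 444 CPM in the mutant, against 590.0 and 484 CPM in N2. The mutant libraries lay together and below both N2 libraries, and the N2 libraries lay apart from each other. The means were 441 ± 4.65 CPM in the mutant and 537 ± 74.8 CPM in N2 (SD, n = 2 each). The log2 fold change was -0.28, with a 95% interval of -0.52 to -0.05, and did not pass (edgeR adjusted p = 0.07648).

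pgl-3 (WBGene00003994; chromosome V, 4755979 to 4758587, plus strand) had 178 and 177 CPM in the mutant and 207 and 206 CPM in N2. The replicates of either strain nearly coincided, and the groups did not overlap. The log2 fold change was -0.22, with a 95% interval of -0.41 to -0.03, and did not pass either (edgeR adjusted p = 0.09044). In linear terms the mutant level was 0.861 times that of N2 for pgl-3 and 0.822 times for pgl-1, and the intervals reach down to 0.755 and 0.697.

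Among the helicase genes, glh-1 (WBGene00001598; chromosome I, 6854478 to 6857536, plus strand) encodes the main Vasa-like helicase of P granules. Its level was 591 and 554 CPM in the mutant, against 605 and 508 CPM in N2. The mutant values fell inside the N2 range. Its log2 fold change was 0.04, with a 95% interval of -0.19 to 0.27 (edgeR adjusted p = 0.8098), so a mutant level between 0.876 and 1.21 times that of N2 lies within the interval.

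glh-4 (WBGene00001601; chromosome I, 3727027 to 3731179, plus strand), the longest of the family, had 158 and 152 CPM in the mutant and 172 and 132 CPM in N2. Again both mutant libraries lay between the N2 libraries. The log2 fold change was 0.03, with a 95% interval of -0.23 to 0.30 (edgeR adjusted p = 0.868).

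glh-2 (WBGene00001599; chromosome I, 6513928 to 6517507, plus strand), the family member most like glh-1, had 118 and 117 CPM in the mutant. In N2 it had 145 and 117 CPM. N2 replicate 1 alone stood above the other 3 libraries, and the log2 fold change of -0.16 had a 95% interval of -0.40 to 0.08 (edgeR adjusted p = 0.3191). The sources used here do not say how reads that match more than 1 gene were counted, so the split of reads between glh-1 and glh-2 is uncertain.

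glh-3 (WBGene00001600; chromosome I, 5792321 to 5795114, minus strand), the member without phenylalanine-glycine repeats, had 70.4 and 72.1 CPM in the mutant, against 75.2 and 74.3 CPM in N2. The groups did not overlap, by a narrow margin, and the log2 fold change was -0.07 with a 95% interval of -0.27 to 0.13 (edgeR adjusted p = 0.6103).

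deps-1 (WBGene00022034; chromosome I, 506473 to 509056, plus strand) had 140.0 and 147 CPM in the mutant and 165 and 155 CPM in N2. The mutant libraries lay below both N2 libraries. The log2 fold change was -0.15, with a 95% interval of -0.35 to 0.04 (edgeR adjusted p = 0.2393). deps-1 shares 109 exon bases with Y65B4BL.7 on the opposite strand, but that gene held 287 counts over the 4 libraries, against at least 3660 for deps-1 in each. In all, 4 of the 7 genes (pgl-1, pgl-3, glh-3 and deps-1) had groups that did not overlap, each lower in the mutant, where 64.0% of all genes tested had groups apart in either direction.

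**Figure D2:**
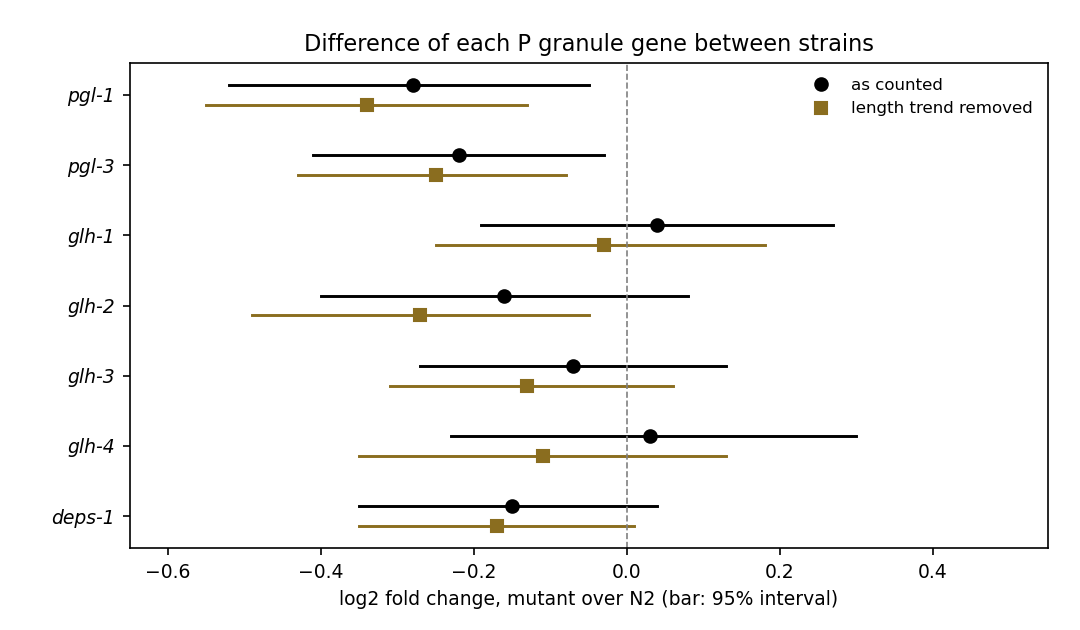
Log2 fold change of each P granule gene, mutant over N2, with its 95% interval, as counted (black circles) and with each library's trend on exon length removed (brown squares). As counted, only the intervals of pgl-1 and pgl-3 lie wholly below 0, and with the trend removed all 7 values are negative, from -0.34 for pgl-1 to -0.03 for glh-1.

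Transcript length bears on these values, because the libraries differed in how counts followed exon length. The 7 genes have merged exons of 2044 to 3747 bases, a range in which the 2991 tested protein-coding genes of 2 to 4 kb had a median log2 fold change of 0.07. After a smooth trend on exon length was removed from each library, 2 of the 7 passed, both lower in the mutant, where 23.6% of all genes passed and 10.3% passed as lower. On the log2 scale pgl-1 then stood at -0.34 ± 0.10 (edgeR adjusted p = 0.02736) and pgl-3 at -0.25 ± 0.08 (adjusted p = 0.03882). glh-2 moved to -0.27 ± 0.10 (adjusted p = 0.07397) and glh-4 to -0.11 ± 0.11, and glh-4 and glh-1 changed sign. The median of the 7 was -0.17, beside 0.002 over all genes tested. The oocyte markers then had a median of -0.29, with 6 of 11 lower and 1 higher, and their part in these values was not tested. The change in calls therefore rests on how length is treated, and which treatment is closer to the RNA content was not tested.

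The N2 replicates differed from each other in 4 of the 7 genes by more than the strains did. For pgl-1 the margin was narrow, with a strain difference of -0.28. A gap between single libraries and a difference between group means are unlike measures. The log2 difference of N2 replicate 2 minus replicate 1 was -0.29 for pgl-1, -0.25 for glh-1, -0.31 for glh-2 and -0.38 for glh-4. It was -0.01 for pgl-3, -0.02 for glh-3 and -0.08 for deps-1. The mutant replicates differed by no more than 0.09 in size in any of the 7. The length trend differed by 0.01 to 0.06 in size between the N2 libraries at these exon lengths. The smallest count of a member was 1788, for which the Poisson error is 2.36%. What set the gaps between the N2 libraries was not tested.

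**Figure D3:**
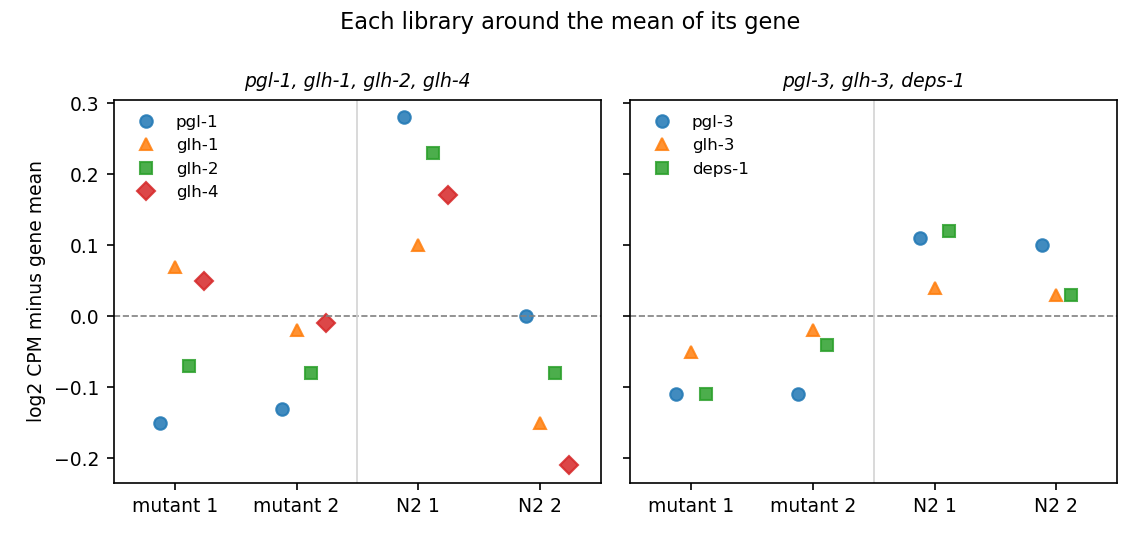
Log2 CPM of each P granule gene minus its mean over the 4 libraries, mutant libraries left of N2, with the 4 genes whose N2 replicates differ most on the left and the other 3 on the right (a split made after the values were seen). On the left N2 replicate 1 is the highest library for each gene, at 0.10 to 0.28, and N2 replicate 2 is near or below 0. On the right both N2 libraries lie above both mutant libraries.

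Which N2 library is kept therefore sets the value of those 4 genes. Without N2 replicate 1 the log2 fold change of pgl-1 was -0.13, that of glh-2 was 0.001 and those of glh-1 and glh-4 were 0.17 and 0.23. Without N2 replicate 2 pgl-1 was at -0.41 and glh-2 at -0.29, and glh-1 and glh-4 were at -0.07 and -0.13. Over the 14 alternative fits pgl-1 was called in 4, with adjusted p between 0.000725 and 0.386. pgl-3 kept between -0.25 and -0.18 in all 14 and was called in 2, and deps-1 and glh-3 were negative in all 14 and called in 0. A fit without 1 library leaves a lone library in its group, which is then assumed to vary like the other group.

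**Figure D4:**
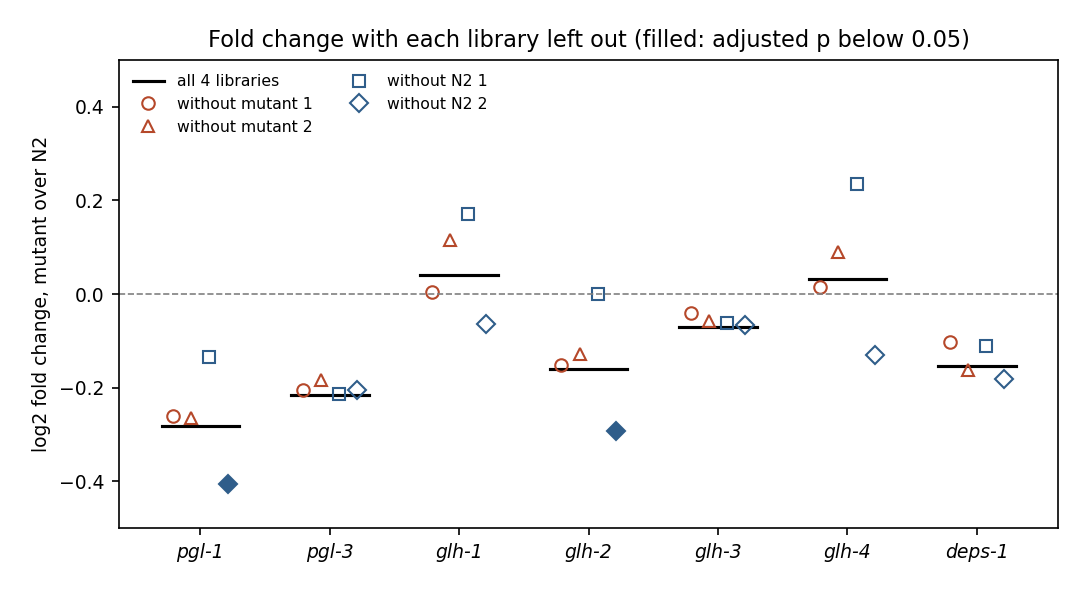
Log2 fold change of each P granule gene, mutant over N2, with all 4 libraries (black line) and with each library left out in turn (filled symbols where the adjusted p is below 0.05). Values for pgl-1, glh-1, glh-2 and glh-4 move most with the N2 libraries, and pgl-3, glh-3 and deps-1 stay within about 0.1 of the value from all 4.

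Per length of exon, the genes fell into an order that both strains shared apart from 2 neighbouring pairs, glh-1 with pgl-1 and glh-4 with glh-2. glh-1 stood at 207 ± 9.51 CPM per kb in the mutant and 201 ± 24.7 in N2, and pgl-1 at 177 ± 1.87 in the mutant and 215 ± 30.0 in N2 (SD, n = 2). In N2 their means differed by less than either SD. Within each N2 library pgl-1 lay above glh-1, at 237 against 218 in replicate 1 and 194 against 184 in replicate 2. Next came pgl-3, at 77.7 ± 0.199 in the mutant and 90.2 ± 0.287 in N2, and deps-1, at 70.3 ± 2.64 in the mutant and 78.2 ± 3.21 in N2. glh-4 and glh-2 lay at 41.4 ± 1.15 and 36.5 ± 0.119 in the mutant, and at 40.5 ± 7.45 and 40.9 ± 6.15 in N2, where they did not differ beyond their spread. glh-3 was the lowest, at 28.5 ± 0.469 in the mutant and 30.0 ± 0.266 in N2. Among all tested genes with an exon length, glh-1 and pgl-1 ranked above 96.9% and 96.8% by this level, and glh-3 above 69.9%.

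The order of glh-1 and pgl-1 was opposite in the strains, a pair singled out after its values were seen. The ratio of glh-1 to pgl-1 within a library, which does not depend on the scaling of that library, was 1.22 and 1.12 in the mutant, against 0.923 and 0.945 in N2. The mean log2 ratio was 0.32 higher in the mutant, and 0.30 higher with the length trend removed. The ratio of pgl-1 to glh-4 was 4.16 and 4.39 in the mutant and 5.17 and 5.51 in N2, a log2 difference of -0.32. In contrast, the ratio of pgl-1 to pgl-3 was 2.26 and 2.30 in the mutant and 2.62 and 2.16 in N2, and that of glh-1 to glh-4 was 5.05 and 4.92 in the mutant and 4.77 and 5.21 in N2, so these pairs overlapped. The N2 libraries that stood apart for pgl-1 and glh-1 moved together and left their ratio nearly equal. Of the 21 ratios among the 7 genes, which share their members and are not independent, 11 did not overlap between strains, beside 64.5% of all pairs of tested genes with counts in every library. With 2 libraries against 2 the exact two-sided permutation test cannot go below p = 0.333, the value of each of these 11.

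As a share of all counts, the 7 genes together took 0.172% and 0.167% in the mutant libraries and 0.193% and 0.167% in N2. The means of 0.169% and 0.180% differed by -0.0107 percentage points, less than the N2 standard deviation of 0.0182, and the sign turned to 0.00219 without N2 replicate 1. pgl-1 and glh-1 held 60.8% and 60.0% of the summed counts in the mutant, against 61.0% and 59.2% in N2. No test was made on these sums.

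Other genes of P granules, of the neighbouring germ granules and of their setting in the cell were described from 11 lists. In the mutant 4 of 138 tested genes were higher and 11 lower (edgeR, adjusted p below 0.05), with a median log2 fold change of -0.01, so that 10.9% were called, beside 26.4% over all genes. Both these counts and those over all genes changed with the library left out, as given further on.

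Autophagy genes that remove PGL proteins from somatic cells held the largest change. SEPA-1 binds PGL-3 and links PGL aggregates to autophagy in embryonic somatic cells, and EPG-2 is a further scaffold of that pathway. sepa-1 had 7 and 5 counts in the mutant libraries, against 52 and 61 in N2. These weak levels of 0.209 and 0.201 CPM in the mutant and 1.77 and 1.95 CPM in N2 differed by -3.15 ± 0.34 on the log2 scale (edgeR adjusted p = 0.0003181), a value that stayed between -3.22 and -3.07 and was called with any library left out. The size depends on the scale at such low counts: limma on the deposited log2 values, which carry an added 8, gave -1.96 (adjusted p = 0.000324), and the gene was not tested where a mean of at least 50 counts was required. epg-2 had 10.7 and 11 CPM in the mutant and 15.1 and 13.4 CPM in N2 (log2 fold change -0.40 ± 0.13, edgeR adjusted p = 0.03897). Its call was lost without N2 replicate 1 and without either mutant replicate (range -0.47 to -0.31), and it shares 78 exon bases with tpxl-1 on the opposite strand, a gene with 20120 counts over the 4 libraries. The other 12 of the 14 tested genes of this list did not pass, among them the ubiquitin-like lgg-1, the most abundant, at 0.02 ± 0.12. The list as a whole had 2 genes lower and 0 higher, beside 13.3% and 13.1% of all genes tested, and a median of 0.05.

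The list of Argonautes and small RNA factors of P granules, with the nuclear prde-1 among them, split by direction. Of 10 tested genes 4 were lower and 2 higher, beside 13.3% and 13.1% of all genes tested. The median was -0.01. prde-1, a nuclear factor needed for piRNA transcription, had 39.1 and 36.0 CPM in the mutant, against 51.6 and 53.5 CPM in N2 (-0.48 ± 0.10, edgeR adjusted p = 0.005667, not called without mutant replicate 2, -0.39). The Argonaute genes prg-1, csr-1 and wago-1 were lower by -0.39, -0.32 and -0.29, and none of these 3 calls was made without either mutant replicate (nor that of wago-1 without N2 replicate 2). csr-1 shares 438 exon bases with frpr-10, which had 24 counts in all. alg-3 and alg-4, Argonautes of the male germline, were higher: alg-4 had 82.3 and 87.0 CPM in the mutant and 43.1 and 44 CPM in N2 (0.96 ± 0.09, edgeR adjusted p = 0.0001931). alg-3 had 58.5 and 60.2 CPM in the mutant and 36.6 and 32.5 CPM in N2 (0.78 ± 0.10, edgeR adjusted p = 0.0006255). Of 11 sperm markers 9 were higher and 0 lower, beside 13.1% and 13.3% of all genes tested. Their summed level was 464 and 460.0 CPM in the mutant libraries and 321 and 349 CPM in N2. Their part in the result of alg-3 and alg-4 was not tested.

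RNA-binding partners of P granules were lower in 2 of 16 tested genes and higher in 0, beside 13.3% and 13.1% of all genes. Their median was -0.06. cgh-1, a DEAD-box helicase shared by germ granules and translationally repressed mRNPs, had 806 and 837 CPM in the mutant, against 1317 and 1228 CPM in N2. Its log2 fold change of -0.63 ± 0.09 (edgeR adjusted p = 0.001118) was called with any library left out. Its Sm-like partner gene car-1 had 605 and 561 CPM in the mutant and 755 and 702 CPM in N2 (-0.32 ± 0.09, edgeR adjusted p = 0.02872), a call lost without either mutant replicate (-0.36 and -0.24). Of the oocyte markers, 3 of 11 were lower as counted and 6 with the length trend removed, beside 13.3% and 10.3% of all genes. The part of these markers in the values of cgh-1 and car-1 was not tested.

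Scaffold proteins that act with PGL proteins had 1 of 6 genes lower and 0 higher, beside 13.3% and 13.1% of all genes tested. meg-4, an intrinsically disordered protein of embryonic P granules, had 20.8 and 21.7 CPM in the mutant and 30.7 and 30.4 CPM in N2 (-0.52 ± 0.10, edgeR adjusted p = 0.004942, not called without mutant replicate 1). The list's median was -0.08, and mip-1, a LOTUS-domain protein that binds GLH-1, was at -0.16 ± 0.10 (-0.23 to -0.07 with a library left out). The 4 genes of proteins that bind GLH helicases had 0 calls and a median of -0.01, with zyx-1 at -0.01 ± 0.10. The 7 genes that place or dissolve P granules in the embryo had 0 calls and a median of 0.13, with mex-5 at 0.23 ± 0.11. Over all genes tested 26.4% were called. With a library left out mex-5 ran from 0.12 to 0.36, and it was called as higher without N2 replicate 1 (0.33, edgeR adjusted p = 0.00821).

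**Figure D5:**
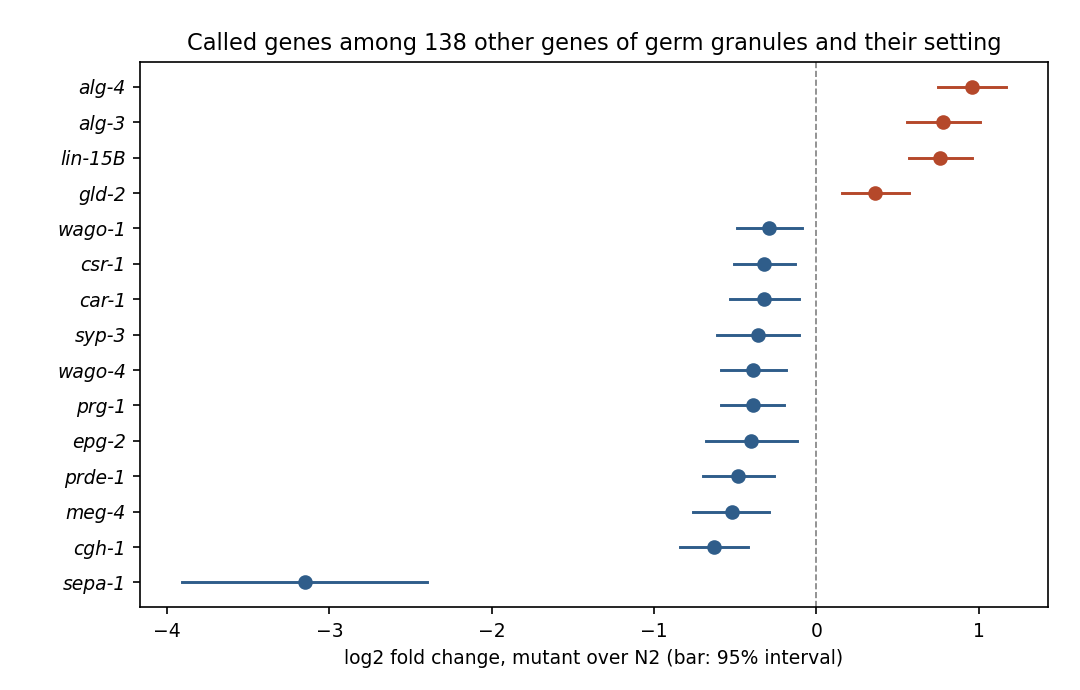
Log2 fold change with its 95% interval, mutant over N2, of the 15 called genes among 138 other genes of germ granules and of their setting (11 lists, nuclear pore, autophagy, chromatin and meiosis genes included), ordered from highest to lowest. sepa-1 stands at -3.15, while the other 14 lie between -0.63 and 0.96.

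In the neighbouring germ granules, which hold Z granule, mutator and SIMR proteins, 1 of 15 genes was lower and 0 higher. Over all genes tested, 13.3% were lower and 13.1% higher. That gene, the Argonaute wago-4 of Z granules, had 120.0 and 116 CPM in the mutant, against 151 and 158 CPM in N2 (-0.39 ± 0.09, edgeR adjusted p = 0.009218, not called without either mutant replicate). These 15 had a median of 0.00, and the LOTUS-domain gene lotr-1 was at -0.07 ± 0.11. With the length trend removed 2 of the 15 were lower, beside 10.3% of all genes. Nuclear pore genes, on whose products P granules sit, had 0 calls among 26, beside 26.4% of all genes tested. Their median was -0.07 (npp-9 at -0.07 ± 0.10). With the length trend removed 3 of the 26 were lower, beside 10.3% of all genes. Chromatin regulators of germline genes gave 1 call, beside 26.4% of all genes tested. lin-15B, which represses germline genes including P granule genes in somatic cells, averaged 121 ± 2.23 CPM in the mutant and 71.0 ± 1.04 CPM in N2, with no overlap (log2 fold change 0.76 ± 0.09, edgeR adjusted p = 0.0004111). The call held with any library left out and after removal of the length trend (0.58). It was the 1 called gene among 15 such repressors, whose median was 0.04 and of which lin-53, a histone-binding protein gene and the most abundant, was at -0.17 ± 0.09 (edgeR adjusted p = 0.181). Of 8 germline chromatin factors 0 were called, beside 26.4% of all genes, with mrg-1 at -0.18 ± 0.09 and a median of 0.03.

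Genes of germ cell proliferation and meiosis, listed as markers of the germline, had 1 of 17 higher and 1 lower, beside 13.1% and 13.3% of all genes. Their median was -0.04. Whether they measure the amount of germline RNA was not tested. gld-2, a cytoplasmic poly(A) polymerase subunit, had 269 and 297 CPM in the mutant and 220 CPM in both N2 libraries (0.36 ± 0.09, edgeR adjusted p = 0.01457). The synaptonemal complex gene syp-3 had 22.3 and 25 CPM in the mutant and 29.0 and 31.6 CPM in N2 (-0.36 ± 0.11, edgeR adjusted p = 0.0366). Both calls were lost after removal of the length trend (0.13 and -0.22) and without either mutant replicate, and syp-3 was also lost without N2 replicate 2. With the length trend removed 1 gene of this list was called, as lower, beside 23.6% of all genes called and 10.3% called as lower. It was glp-1, the Notch receptor gene of germline stem cells, named here after its values were seen. It stood at -0.28 (edgeR adjusted p = 0.03431), against -0.11 as counted (adjusted p = 0.4703). prg-1, gld-2 and syp-3 share 12, 46 and 61 exon bases with genes of the opposite strand, whose reads cannot be told apart without strand. daz-1, the most abundant of the list, was at -0.03 ± 0.12. The summed level of the 17 genes was 2108 and 2282 CPM in the mutant and 2227 CPM in both N2 libraries, so the groups overlapped. The 7 P granule genes summed to 1693 and 1664 CPM in the mutant and 1958 and 1677 CPM in N2.

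The genes nearest to the mean profile of the 7 over the 4 libraries, by Euclidean distance of centred log2 CPM among 7597 genes of at least 10 CPM, were pri-1, nprt-1, apg-1, M01F1.4 and algn-7. Their distances ran from 0.0124 to 0.0237, and each had N2 replicate 1 as its highest library, at 0.15 or 0.16 above the gene's mean. Their log2 fold changes ran from -0.14 to -0.10 and none passed (edgeR adjusted p = 0.395 to 0.516). As 41 genes lay within 0.05, 4 libraries separate such profiles poorly.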

How the data were processed

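The authors deposited raw counts per gene and, in a second table, log2 values. The deposited log2 values were recomputed from the counts by scaling each library to 22334127, adding 8 and taking log2 (largest gap 0.000507). How reads were aligned, counted, assigned to a strand or split among copies, and on which build, has no statement in the sources used here. Both the 7 members and the 11 gene lists were chosen with earlier results of these data known. Gene IDs were paired with symbols by a name table, which matched 18778 of 20182, and 5 listed symbols found no gene. These were laf-1, epg-11 and npp-17, and mut-8 and rde-3, which are other names of listed genes. Exon lengths are merged exons of the Ensembl annotation of WBcel235. No sequences were used here.

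The test was edgeR 4.0.16 in R 4.3.3 (quasi-likelihood F test on the counts, TMM scaling, default expression filter, group as the only term, Benjamini-Hochberg adjustment, threshold 0.05). Standard errors follow from the fold change and its F statistic, and the 95% interval uses the test's degrees of freedom. DESeq2 1.42.0 and limma 3.58.1 on the deposited log2 values were alternatives, as were other scalings and filters, each library left out, a replicate block, and removal of a lowess trend (span 0.3) on exon length. The main fit, scaling by DESeq2 size factors, the replicate block, DESeq2, limma and the length trend removal were tested on simulated data first. The other alternatives, the filters and each library left out among them, were not. Besides the members and the mutated genes, the text names from each list the 3 called genes with the largest change and the most abundant gene, and the 5 genes nearest in profile. prg-1 and csr-1 complete a count, and neighbours of the members were added after values were seen. Replicates were no copies of each other: chi-square divided by its degrees of freedom was 9.06 between the mutant libraries and 30.7 between the N2 libraries. At 24717311 to 33009708 counts per library the members' counting error is small, and the number of libraries limits precision. Figures were drawn with matplotlib 3.10.9.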

Additional observations from a re-analysis of the deposited data

How the results depend on the processing

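The number of P granule genes called lower was 0 as counted and 2 with the length trend removed. It was 3 with the replicate block and the length trend removed together, and 1 with a crossed replicate block. No alternative called a member higher. Of the 13944 genes tested, 1858 were lower as counted and 1430 with the length trend removed. With the replicate block and the length trend removed together 1731 were lower, and with a crossed block 2030. The sign changed with the length trend removed for glh-1 at -0.035 (-0.033 with the block as well) and for glh-4 at -0.107 (-0.101). With a library left out glh-1 ran from -0.065 to 0.171, glh-2 from -0.293 to 0.001, glh-4 from -0.13 to 0.234, zyx-1 from -0.102 to 0.111, lotr-1 from -0.184 to 0.072, lgg-1 from -0.152 to 0.222, npp-9 from -0.136 to 0.03 and daz-1 from -0.169 to 0.138. zyx-1, called in no fit, was at 0.013 with library size alone, 0.009 without a filter, 0.018 with a mean of at least 50 counts and 0.01 with limma, and daz-1 was at 0.004 with a mean of at least 50 counts.

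Among the 138 other listed genes, 7 were higher without a filter and 8 with a crossed block, against 4, and 7 were lower with a mean of at least 50 counts, against 11. Calls were lost for car-1 with a mean of at least 50 counts and with the replicate block, for wago-1 with these, library size alone and limma, for epg-2 with a mean of at least 50 counts, DESeq2, limma and library size alone, and for syp-3 with library size alone, DESeq2 and limma. With a library left out 3 to 12 were higher and 3 to 18 lower. Over all genes the counts of 1821 higher and 1858 lower ran from 961 to 2042 and from 447 to 2307. The summed share of the 7 genes differed by -0.0236 to 0.00219 percentage points, mutant minus N2, with a library left out.

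Replicate numbers are shared by the strains but name no common batch, and deviations of same-numbered libraries correlated at -0.165 over 7575 genes. With the replicate block 1792 genes were higher and 1727 lower, 0 of the 7 members were called, and 4 were higher and 9 lower among the other listed genes. A crossed block, chosen after seeing the data, gave 1912 and 2030. The causes of these shifts were not tested.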

Other observations

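The protein-coding genes next to the P granule genes were read from the annotation as a description. Of the 14 neighbours 12 were tested and 2 were called (edgeR adjusted p below 0.05), beside 26.4% over all genes tested. him-3, a meiotic axis gene whose start lies 189 bases from that of pgl-1 on the other strand, had 59.5 and 58.8 CPM in the mutant and 63.3 and 78.5 CPM in N2 (log2 fold change -0.26 ± 0.11, edgeR adjusted p = 0.116). Its higher N2 library was replicate 2, whereas that of pgl-1 was replicate 1. bgnt-1.4, next to pgl-3 at 2386 bases, had 1.02 and 0.806 CPM in the mutant and 0.273 and 0.16 CPM in N2 (2.08 ± 0.41, edgeR adjusted p = 0.00466). lin-59, next to glh-4 at 5869 bases on the other strand, had 87.7 and 97.7 CPM in the mutant and 75.6 and 61.1 CPM in N2 (0.44 ± 0.12, edgeR adjusted p = 0.0191). sacy-1, a DEAD-box helicase gene 337 bases before glh-1 on the same strand, was at 0.07 ± 0.09.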
